A study of Mus musculus with 8 samples.

Results

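Elastic fibres and the microfibrils that scaffold them are built from a small set of secreted proteins, and 10 of their genes are described here: Fbn1, Fbn2, Mfap4, Mfap5, Eln, Fbln1, Fbln2, Fbln5, Efemp1 and Efemp2. They were taken by gene symbol from a table of 21899 genes, and each symbol matched 1 row. The table holds RNA sequencing read counts of mesenchymal stem cells of mouse femoral bone marrow, stromal cells that grow attached to the dish and can form bone, fat and cartilage. Of 8 libraries, 4 (EA) came from cells kept for 48 h in 10 µM ellagic acid, a plant polyphenol, and 4 (control) from cells kept as long in the solvent DMSO. Strain, age, sex and passage are not stated in the labels. Nor do they name the animal or culture behind each library, so the spread that the p-values rest on may be technical.

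A microfibril is a polymer of fibrillin, to which small glycoproteins such as the microfibril-associated proteins bind. Elastin is laid down on this scaffold as a soluble precursor and cross-linked by lysyl oxidases, and fibulins bring elastin, fibrillin and the cross-linking enzymes together. Microfibrils also hold latent TGF-beta complexes in the matrix, and they can occur without elastin, as in bone.

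The cells of both groups expressed a fibrillin and fibulin set with almost no elastin mRNA. Fbn1, the main fibrillin gene, was 2.36-fold lower with EA, and Fbln2, the fibulin 2 gene, was 1.56-fold higher (TMM scaling, n = 4 in each group, log2 fold changes of −1.24 ± 0.06 and 0.64 ± 0.06 with SE). Those were the members whose calls held under every scaling of the libraries that was run. Efemp2 and Fbln5, which encode fibulin 4 and fibulin 5, and Fbn2, the second fibrillin gene, differed by 1.31-fold or less and their calls depended on the scaling. Mfap4, Eln, Fbln1 and Efemp1 had too few reads to be tested.

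Total counts per library ranged from 14112519 to 17390200. Of all 11777 tested genes, 67.2% passed at an adjusted p under 0.05 (quasi-likelihood test in edgeR, Benjamini-Hochberg), 33.1% as higher and 34.2% as lower with EA. Of 11 stromal markers 10 had enough reads to be tested, and the sum of all 11 was 2899 to 3269 CPM (counts per library total of 1000000) in control and 3268 to 3444 in EA. With TMM scaling that sum was 2570 to 2861 CPM in control and 3721 to 3905 in EA, without overlap. Among the surface proteins that usually define these cells, the genes of CD29 (Itgb1, 897 and 1326 CPM in control and EA with TMM scaling), CD44 (Cd44, 506 and 466), PDGFR-alpha (Pdgfra, 137 and 631), VCAM-1 (Vcam1, 308 and 207) and SCA-1 (Ly6a, 33.2 and 11.8) were present. Those of CD90 (Thy1, 12 reads in control and 7 in EA), CD105 (Eng, 2.16 and 3.53 CPM) and CD73 (Nt5e, 4.39 and 6.27 CPM) were near absent or low. The 5 endothelial markers summed to at most 2.27 CPM, and Ptprc, Adgre1, Csf1r and Itgam, of 8 blood and macrophage markers, had under 80 reads each over the 8 libraries. Others on that list were detected and differed in both directions. Cd14 had 2391 reads in control and 533 in EA, Lyz2 2411 and 2830, and Cd68 97 and 58. With TMM scaling Cd14 was 3.53-fold lower with EA, Lyz2 was 1.49-fold higher and Cd68 was not called. The 8 blood and macrophage markers, mostly Cd34, summed to 296 to 329 CPM in control and 254 to 268 in EA. With TMM scaling they summed to 262 to 288 and 288 to 302. The direction for Cd34 itself turned with the scaling, at a log2 fold change of 0.20 with TMM and −0.16 with library totals. The 4 adipocyte markers, mostly Fabp4, summed to 2.71 to 4.57 CPM in control and 3.90 to 5.68 in EA. With TMM scaling they summed to 2.37 to 4.05 and 4.41 to 6.47. Adipoq, Plin1 and Pparg had under 80 reads each over the 8 libraries. The 5 smooth muscle markers, mostly Acta2, summed to 1058 to 1179 CPM in control and 3294 to 3742 in EA. The others on that list were low: Myh11 had 13 reads in control and 12 in EA, Cnn1 7 and 46, Tagln 17 and 93, and Des 82 and 67. The 5 osteoblast markers, mostly Runx2, summed to 83.1 to 97.8 CPM in control and 179.8 to 201.7 in EA. The 3 chondrocyte markers, mostly Sox9, summed to 79.9 to 90.9 and 263 to 274. Of these 3, Acan was near absent, with 1 read over the control libraries and 0 over the EA libraries. No marker on these 7 lists was at 0 reads in all libraries, and their part in the members' differences was not tested. In bulk RNA, fewer cells of a type and less RNA per cell cannot be told apart.

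Levels of different genes were compared as FPKM, which divides reads by gene length and by the library total. In control the order was Efemp2 at 120.3 ± 11.0 FPKM, Fbln2 at 94.5 ± 6.88, Fbn1 at 32.0 ± 1.99, Fbln5 at 17.6 ± 0.883 and Fbn2 at 1.23 ± 0.137 (SD, n = 4). The ranges of neighbours in that order did not overlap. Mfap5 followed at 0.241 ± 0.0645 FPKM, also apart from Efemp1 below it. Efemp1, Mfap4, Eln and Fbln1, at 0.102 FPKM or less on average, each overlapped with the next in order. With EA the order of the upper 4 was Fbln2 at 114.8 ± 3.85 FPKM, Efemp2 at 94.7 ± 3.74, Fbln5 at 16.2 ± 0.454 and Fbn1 at 10.6 ± 0.552, again without overlap. Thus Fbln2 and Efemp2 had changed places, and so had Fbln5 and Fbn1. At the lower end Mfap5 and Mfap4 overlapped with EA, Mfap4 stood apart from Eln, and Eln, Efemp1 and Fbln1 each overlapped with the next in order.

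**Figure D1:**
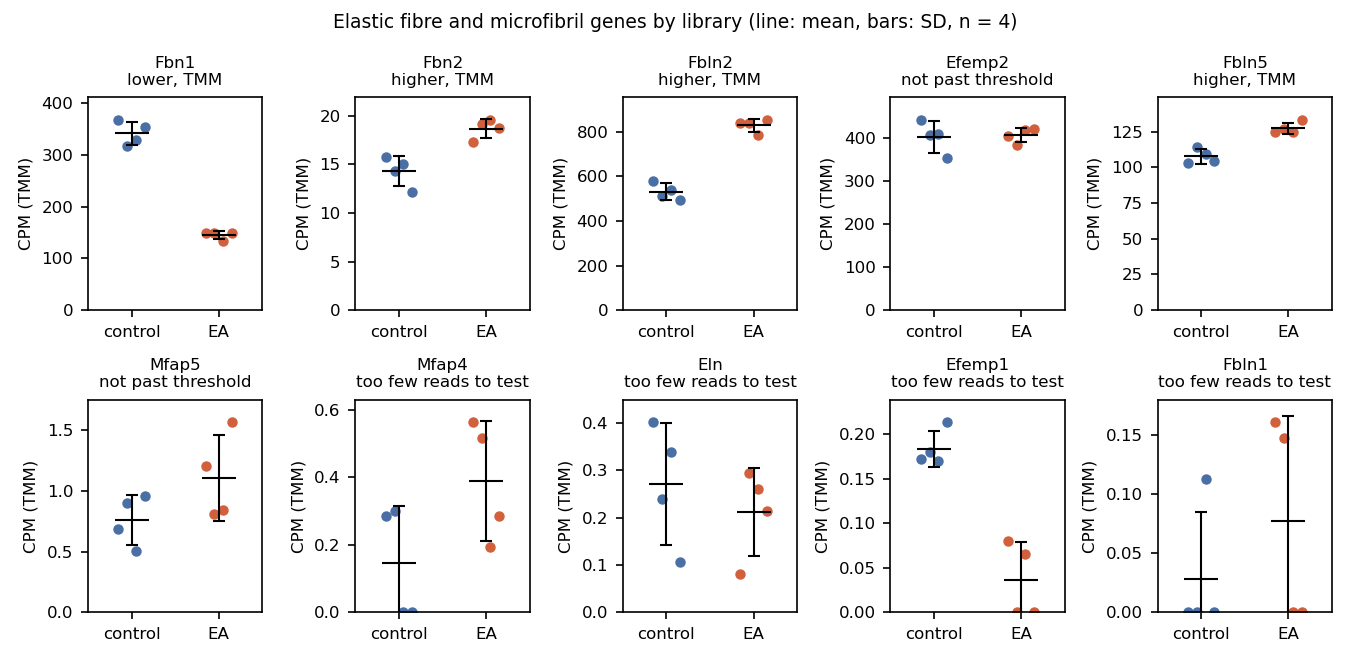
Read counts scaled to 1000000 (CPM, TMM scaling) (y axis, from 0) of the 10 members in the 4 control and 4 EA libraries (points), with the mean and SD. Fbn1 lies between 317.6 and 367 in control and between 133 and 150 in EA, Fbln2 lies higher in each EA library than in any control library, and the members of the lower row are at 1.56 or less in every library.

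Fbn1 encodes fibrillin 1, the backbone of microfibrils in most adult tissues (chromosome 2, 125142514 to 125349913, minus strand, GRCm39). It had 6408, 5283, 5840 and 6646 reads in control libraries 1 to 4 and 1847, 2036, 2053 and 2100 in EA. TMM scaling multiplies each library total by a factor that takes most genes as unchanged. In CPM on that scale these were 367, 317.6, 330 and 354 against 148, 150, 133 and 149. Every EA library lay below every control library. The log2 fold change was −1.24 ± 0.06 (SE, derived from the F test), with an adjusted p of 2.55e-13 in edgeR's quasi-likelihood test. It was −1.60 ± 0.06 with library totals alone.

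Fbn2 encodes fibrillin 2, which is best known from developing tissue (chromosome 18, 58141695 to 58343559, minus strand). It had 276, 238, 267 and 229 reads in control and 216, 260, 301 and 264 in EA. On the TMM scale these were 15.8, 14.3, 15.1 and 12.2 CPM against 17.4, 19.1, 19.6 and 18.8, so that the groups did not overlap. The log2 fold change was 0.38 ± 0.10 with an adjusted p of 0.00238 (edgeR). With library totals alone the groups overlapped and the value was 0.02 ± 0.10 (adjusted p = 0.854), so no direction can be given for Fbn2 apart from the scaling.

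The fibrillins can also be read against each other within a library, where the scaling between libraries has no part. Fbn2 made up 3.80%, 3.97%, 4.03% and 3.07% of the summed fibrillin FPKM in control libraries 1 to 4. In EA it made up 9.69%, 10.5%, 11.9% and 10.3%. The mean share was 3.72 ± 0.444% in control and 10.6 ± 0.911% in EA (SD, n = 4), and the groups did not overlap. In FPKM, Fbn2 itself averaged 1.23 in control and 1.25 in EA, and Fbn1 32.0 and 10.6. The higher share thus went with the lower Fbn1 and is not a separate result. Per length, Fbn1 remained the more abundant fibrillin mRNA in all 8 libraries.

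The microfibril-associated genes were at the edge of detection. Mfap5 encodes MAGP-2, a small glycoprotein that binds fibrillin (chromosome 6, 122482804 to 122506249, plus strand). It had 12, 15, 9 and 18 reads in control and 15, 11, 13 and 22 in EA, and the groups overlapped. Its log2 fold change of 0.52 ± 0.35 did not pass (adjusted p = 0.193, edgeR), and the estimate with 2 SE on each side ran from −0.18 to 1.22. Mfap4 encodes a fibrinogen-domain protein of elastic fibres (chromosome 11, 61376257 to 61379726, plus strand). It had 5, 5, 0 and 0 reads in control and 7, 7, 3 and 4 in EA, with overlap between the groups. The 10 control and 21 EA reads put EA at 2.67 times control, with exact 95% bounds of 1.20 and 6.35 (counting error only, TMM scaling). With library totals it was 2.08 times, with bounds of 0.936 and 4.94 that include no difference. The end of Mfap4 overlaps that of Mapk7 on the opposite strand, which had 2547 reads in control and 1781 in EA. Without a stated strand setting in the counting, reads of the shared stretch cannot be told apart. Mfap5 made up 79.5 ± 23.8% of the summed FPKM of Mfap4 and Mfap5 in control and 60.9 ± 13.6% in EA, with overlap.

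Eln encodes tropoelastin, the precursor of the elastic core (chromosome 5, 134731447 to 134776177, minus strand). It had 7, 4, 6 and 2 reads in control libraries 1 to 4 and 1, 4, 4 and 3 in EA. The groups overlapped, and EA stood at 0.803 times control, with exact 95% bounds of 0.355 and 1.74 (counting error only, TMM scaling). With library totals it was 0.625 times, with bounds of 0.277 and 1.36. Set against the scaffold gene per length, Eln stood at 0.119 ± 0.0539% of the Fbn1 FPKM in control and 0.220 ± 0.0999% in EA, with overlap. No difference in elastin mRNA was detected, and at this depth differences within the counting bounds above stay undecided.

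Of the 5 fibulin genes, Fbln2, Efemp2 and Fbln5 made up nearly all reads. Fbln2 encodes fibulin 2, a larger fibulin that binds fibrillin and fibronectin (chromosome 6, 91189437 to 91249522, plus strand). It had 10130, 8480, 9567 and 9263 reads in control and 10443, 11428, 12079 and 11975 in EA. On the TMM scale these were 581, 509.8, 540.3 and 493 CPM against 839, 841, 785 and 852, and every EA library lay above every control library. Its log2 fold change was 0.64 ± 0.06 with an adjusted p of 3.66e-09 (edgeR). With library totals alone it was 0.28 ± 0.06 with an adjusted p of 0.000154 and the groups still did not overlap.

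Efemp2 encodes fibulin 4, which brings lysyl oxidase to elastin (chromosome 19, 5523982 to 5532545, plus strand). It had 7687, 6739, 7232 and 6627 reads in control and 5041, 5222, 6428 and 5900 in EA. In TMM-scaled CPM these were 441, 405, 408 and 353 against 405, 384, 418 and 420. These ranges overlapped, and the log2 fold change of 0.02 ± 0.06 did not pass (adjusted p = 0.817, edgeR). Its estimate with 2 SE on each side ran from −0.11 to 0.14. With library totals alone Efemp2 was lower in every EA library than in any control library, at −0.35 ± 0.06 (adjusted p = 4.43e-05). Its last bases overlap Mus81 on the opposite strand, which had 2667 reads in control and 1613 in EA.

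Fbln5 encodes fibulin 5, which links elastin to cell-surface integrins (chromosome 12, 101712824 to 101785314, minus strand). It had 1799, 1896, 1930 and 1954 reads in control and 1549, 1720, 1921 and 1869 in EA. In TMM-scaled CPM these were 103, 114.0, 109 and 104 against 124, 127, 125 and 133. The groups did not overlap, with a log2 fold change of 0.24 ± 0.06 and an adjusted p of 0.000882 (edgeR). With library totals alone the value turned to −0.12 ± 0.06 and did not pass (adjusted p = 0.0592).

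The other fibulin genes, Efemp1 and Fbln1, were nearly silent. Efemp1 encodes fibulin 3 (chromosome 11, 28803204 to 28876743, plus strand). It had 3, 3, 3 and 4 reads in control and 1, 0, 1 and 0 in EA. Every EA library lay below every control library. The 13 and 2 reads put EA at 0.196 times control, with exact 95% bounds of 0.0214 and 0.864 (counting error only, TMM scaling). When genes of all counts were kept, its adjusted p was 0.120 in edgeR. Fbln1, the fibulin 1 gene (chromosome 15, 85090150 to 85170736, plus strand), had 2 reads in 1 control library and 4 reads over 2 EA libraries. With TMM scaling these put EA at 2.54 times control with bounds of 0.364 and 28.1.

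The short fibulins Efemp1 and Efemp2 are a close pair of which one was nearly silent and the other abundant, and their promoters are shown for that contrast. Each sequence is the 250 bases before the first listed RefSeq start, 5′ to 3′, with CpG dinucleotides in capitals.
Efemp1 (chr11:28852955-28853204, GRCm38.p6, plus strand): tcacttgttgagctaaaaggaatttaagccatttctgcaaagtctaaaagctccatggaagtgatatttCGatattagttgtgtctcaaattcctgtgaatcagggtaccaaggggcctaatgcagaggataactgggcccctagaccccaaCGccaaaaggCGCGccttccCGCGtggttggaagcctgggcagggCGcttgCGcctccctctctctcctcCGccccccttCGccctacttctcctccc
Efemp2 (chr19:5473696-5473945, GRCm38.p6, plus strand): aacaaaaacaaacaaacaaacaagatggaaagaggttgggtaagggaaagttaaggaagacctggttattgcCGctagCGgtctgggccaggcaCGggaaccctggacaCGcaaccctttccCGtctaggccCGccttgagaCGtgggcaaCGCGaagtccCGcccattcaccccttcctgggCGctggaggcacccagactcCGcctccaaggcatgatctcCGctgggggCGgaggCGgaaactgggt

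RefSeq promoter windows of 300 bases, which add the 50 bases after the start, were matched by symbol for 6 of the 10 members and numbered 10 in all. These are Fbn1, Fbln1, Fbln2, Fbln5, Efemp1 and Efemp2. The nearly silent Efemp1 had 11 CpG in its window. Its highly expressed relative Efemp2 had 16 at the start shown and 35 and 41 at its other listed starts, whose windows overlap each other. The nearly silent Fbln1 had 12 and 24 at its starts, whose windows also overlap. Overlapping windows count some CpG more than once. The expressed Fbln5 had 24 and 8, against a median of 7 over 32851 windows. For Fbn1 and Fbln2 all 250 bases before the listed start lie in exons of the GENCODE annotation on that build, so their windows may not be promoters and are not described. The letters GGGCGG, a GC box, were searched on both strands and occurred in at least 1 window of each of the other 4 genes, and in 35.7% of all windows. TATAAA, searched on both strands, was in none of their 8 windows and in 13.6% of all. GGGCGG itself holds a CpG, so these features overlap, and gene counts do not tell which start the cells used.

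Shares within a library set the fibulins against each other without scaling between libraries. Fbln2 made up 40.7 ± 0.993% of the summed FPKM of the 5 fibulin genes in control and 50.9 ± 1.44% in EA (SD, n = 4). By library these were 41.0%, 39.3%, 40.7% and 41.7% against 51.3%, 52.4%, 49.0% and 50.7%. Efemp2 went the other way, from 51.7 ± 1.07% to 41.9 ± 1.46%, and for both genes the groups did not overlap. Shares of a common sum are tied, so the fall of Efemp2 is not a separate result from the rise of Fbln2. Fbln5 stood at 7.62 ± 0.660% and 7.19 ± 0.127%, with overlap. Fbn1 was 33.9 ± 2.55% of the Fbln2 level in control and 9.20 ± 0.189% in EA. Against Efemp2 it went from 26.8 ± 3.10% to 11.2 ± 0.916%. Each of these ratios was lower in every EA library.

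**Figure D2:**
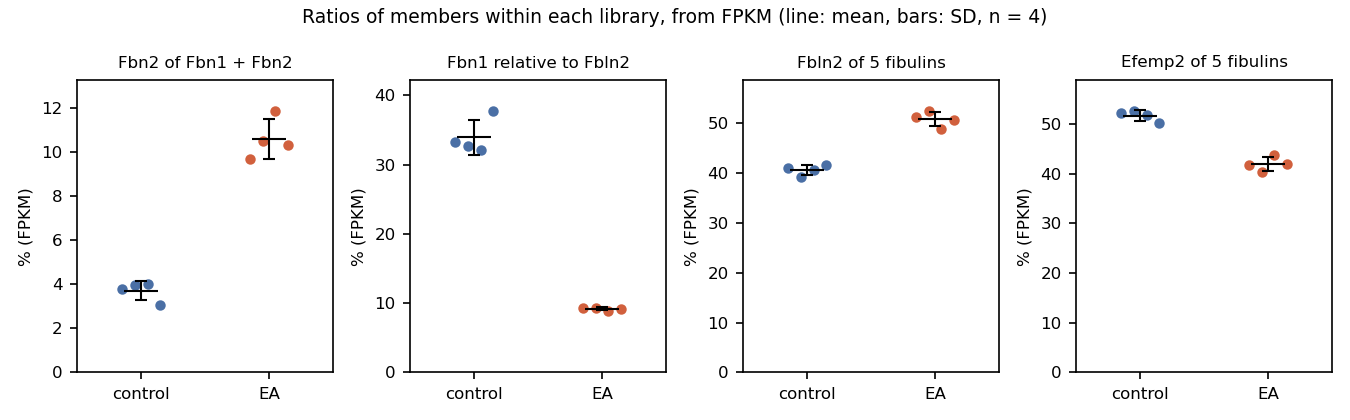
Ratios of members within each library in percent, from the deposited FPKM (y axes from 0), for the 4 control and 4 EA libraries (points), with the mean and SD. The mean Fbn2 share of fibrillin is 3.72% in control and 10.6% in EA, the mean Fbln2 share of fibulins 40.7% and 50.9%, and Fbn1 relative to Fbln2 33.9% and 9.20%.

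As a set, the 10 members summed to 244 to 287 FPKM in control and 234 to 244 in EA, which overlapped. Without Fbn1 the control sums lay between 211 and 253 and the EA sums between 224 and 233. Fbn1 made up 12.1 ± 0.998% of the sum in control and 4.44 ± 0.204% in EA, and Fbln2 35.5 ± 0.606% and 48.2 ± 1.26%. Efemp2 made up 45.1 ± 1.40% and 39.8 ± 1.48%. Shares of Fbn1 and Efemp2 were lower, and those of Fbln2 higher, in every EA library than in any control library. As parts of a common sum these shares are tied and are not separate results.

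Counted by test, 3 of the 6 tested members were higher (Fbn2, Fbln2 and Fbln5) and 1 was lower (Fbn1) with TMM scaling, beside 33.1% higher and 34.2% lower of all tested genes. The groups did not overlap for 4 of 6, beside 60.6% of all tested genes, so the share of members that differed was close to the background. TMM factors lay between 1.13 and 1.14 in control libraries and between 0.878 and 0.885 in EA libraries. With library totals alone the count was 1 higher (Fbln2) and 2 lower (Fbn1 and Efemp2), where 16.5% of all genes were higher and 61.1% lower. With upper-quartile factors it was 1 higher (Fbln2) and 1 lower (Fbn1), where 24.0% were higher and 45.3% lower. Over all tested genes the median log2 fold change was −0.02 with TMM, −0.17 with upper-quartile factors and −0.38 with library totals. Against that median Efemp2 stood near it under all 3 scalings, at 0.02, −0.14 and −0.35. Fbln2, Fbn2, Fbln5 and Mfap5 lay above it and Fbn1 below it in each, though Mfap5 was not called in any. A change of scaling moves a gene and the median by nearly the same amount, so these are not 3 separate results.

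**Figure D3:**
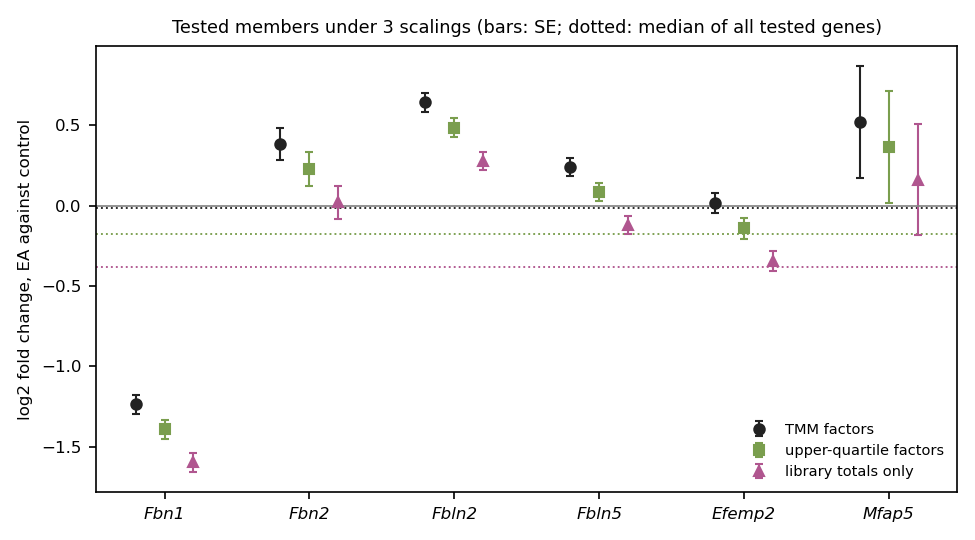
Log2 fold change of EA against control (y axis, bars for SE) of the 6 tested members with TMM factors, upper-quartile factors or library totals alone, with the median of all tested genes under each (dotted lines). Fbn1 stays below 0, from −1.24 to −1.60, and Fbln2 above it, from 0.64 to 0.28, whereas Fbln5 and Efemp2 lie on both sides of 0.

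Genes that work with the members were read from lists of partners, cross-linking enzymes, proteases and receptors. Of 26 listed microfibril and fibre partners 20 were tested, 10 were higher and 7 lower, with a median log2 fold change of 0.15, beside 33.1% higher and 34.2% lower of all tested genes. With library totals 9 were higher and 10 lower, beside 16.5% and 61.1%. Of the 7 lower, Mfap3l (87 reads in control and 37 in EA) and Hmcn1 (107 and 29) met the count filter only through the control libraries, where they were high. Furin, the protease that trims profibrillin, rose 3.29-fold from 93.3 ± 6.56 to 307 ± 3.55 CPM (TMM scaling, SD, n = 4). Ltbp3, which holds latent TGF-beta, rose 2.04-fold from 368 ± 27.5 to 753 ± 37.9 CPM. Fn1, the fibronectin on which fibrillin assembles, rose 2.16-fold, and the proteoglycan gene Bgn 1.75-fold. The proteoglycan gene Dcn was 1.99-fold lower, from 13.1 ± 1.50 to 6.56 ± 1.05 CPM. Emilin2 was 1.38-fold lower, Adamtsl5 1.33-fold and Adamts6 1.28-fold. The gene of the other microfibril-associated glycoprotein of the MAGP type, Mfap2, had 3 reads in each group.

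All 5 lysyl oxidase genes were tested, and 4 were higher and 1 lower, with a median of 1.78, beside the same 33.1% and 34.2% of all genes. Lox, which cross-links elastin and collagen, had the largest value, at 7.86-fold from 405 ± 34.5 to 3182 ± 255 CPM. Loxl1, the member most tied to elastin, rose 1.59-fold from 19.2 ± 1.84 to 30.5 ± 3.51 CPM. Loxl3 rose 3.44-fold. Loxl2 had 17 reads over the control libraries and 97 over the EA libraries, or 0.241 ± 0.107 and 1.77 ± 0.441 CPM. It met the count filter only through EA, where it was high, so its place among the 4 rests on that filter. Loxl4 was 1.55-fold lower. Every call among these 5 was the same with library totals.

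Of 12 listed elastin-degrading proteases 6 were tested, with 3 higher, 2 lower and a median of 0.18, beside 33.1% and 34.2% of all genes. With library totals 1 was higher and 3 were lower, beside 16.5% and 61.1%, and Ctsk, the cathepsin K gene, was among the lower (log2 fold change of −0.35, against 0.01 and no call with TMM). Mmp14, a membrane-bound metalloprotease, rose 2.36-fold from 387 ± 35.2 to 911 ± 30.4 CPM. The gelatinase gene Mmp2 rose 1.41-fold and the cathepsin gene Ctsl 1.27-fold, but neither was called with library totals (log2 fold changes of 0.13 and −0.02). The gelatinase gene Mmp9 was 1.89-fold lower, from 80.4 ± 4.60 to 42.6 ± 5.10 CPM, and Cela1 1.45-fold lower. Of 11 listed receptors 10 were tested, with 7 higher, 2 lower and a median of 0.69, beside the same 33.1% and 34.2%. With library totals 6 were higher and 4 lower, beside 16.5% and 61.1%. Among the integrin subunits that bind fibrillin, fibulin 5 or fibronectin, Itga5 rose 2.24-fold, Itgb5 2.02-fold and Itgav 1.76-fold. Itga8 rose 5.70-fold from 2.24 ± 0.313 to 12.8 ± 1.72 CPM, and Itgb8 was 2.17-fold lower from 14.6 ± 3.30 to 6.74 ± 0.271 CPM. Neu1, the sialidase of the elastin receptor complex, was 1.14-fold lower with TMM, where the other listed genes of that complex were not called lower. Ctsa was 1.14-fold higher with TMM and lower with library totals (log2 fold changes of 0.19 and −0.17). Glb1 was not called with TMM (log2 fold change of 0.14, adjusted p = 0.103, edgeR). With library totals Glb1 and Neu1 were called lower as well (log2 fold changes of −0.22 and −0.56), so these genes differed in direction with TMM alone. All TMM calls named in these paragraphs had adjusted p-values under 0.05 in edgeR, the weakest being Mfap3l at 0.0415. The median over all tested genes was −0.02 on the same scale.

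**Figure D4:**
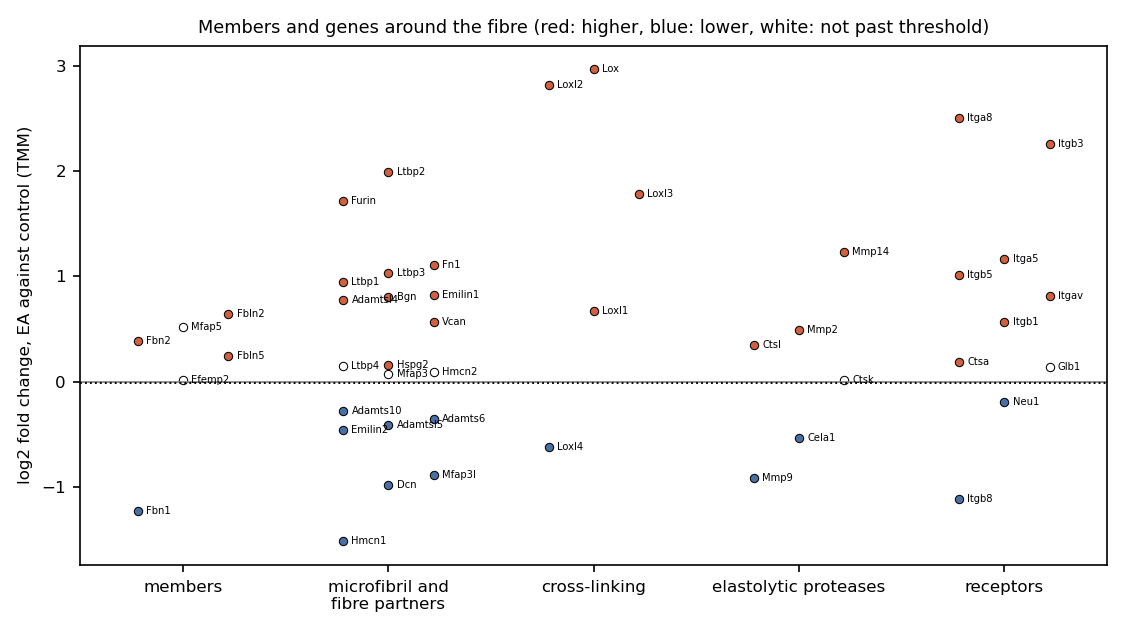
Log2 fold change of EA against control with TMM scaling (y axis) of the tested members and of the tested genes on 4 pathway lists (x axis). Points are genes, filled where the adjusted p was under 0.05, and the dotted line is the median of all tested genes at −0.02. Fbn1 at −1.24 is the lowest member, and Lox at 2.97 is the highest gene shown.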

How the data were processed

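Read counts per gene were deposited by the authors, 1 column per library. The submitters' processing notes name cutadapt 1.15, HISAT2 2.0.5 and build GRCm39. Counting software, strandedness and gene annotation version: not given in the sources used here. Deposited FPKM values equalled count, gene length and column total recombined in all 175192 cases (relative tolerance 1e-09). Gene positions and lengths are the deposited ones.

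Counts were fitted over the whole table in R 4.3.3 with edgeR 4.0.16: TMM factors, the default filter on low counts by group (minimum count 10) and a robust quasi-likelihood F test without covariates, with Benjamini-Hochberg adjustment over 11777 genes and a threshold of 0.05. The SE is the log2 fold change divided by the square root of F, and borrows spread across genes. Counting intervals are exact binomial and cover counting error only, since reads carry no molecular identifiers. FPKM ratios were computed by library and not tested. Pairs of libraries within a group differed by more than counting noise (chi-square per degree of freedom of 2.82 to 16.7), so none was taken for a repeat deposit of another. This does not show that they came from separate cultures.

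All members are named, and of each pathway list up to 4 higher and 4 lower called genes by p. Further list genes are named where they limit a statement. Members and lists were chosen with earlier results of these data known. Alternatives were other scalings and filters, DESeq2 1.42.0, limma 3.58.1 (voom, and log2 FPKM with pseudocounts of 1 and 0.1), a replicate block and leaving out each library. Scripts were tested on simulated data. Promoters are from RefSeq on GRCm38.p6, another build than the table's, and were matched by symbol. Figures were drawn with matplotlib 3.10.9.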

Additional observations from a re-analysis of the deposited data

Results flagged for a closer look

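Among 12 groups of 4 libraries (6 tested members in control and EA), 1 held a library far from the other three. Fbn1 in EA library 3 was at 133 CPM with TMM scaling, beside 148, 149 and 150 in the other EA libraries. A gap large enough to be flagged arises in about 1 of 20 groups by chance. Without that library the log2 fold change of Fbn1 was −1.20, beside −1.24 with it.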

How the results depend on the processing

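Of 287 recomputed values, 259 kept their direction, side of the threshold or size. Scaling accounted for most others. The members called higher numbered 1 in place of 3 with upper-quartile factors, library totals and log2 FPKM with either pseudocount, and those called lower 2 in place of 1 with library totals and log2 FPKM. Over all genes the counts were 1940 higher and 7196 lower with library totals, 1924 and 7170 with log2(FPKM + 1), and 1922 and 7179 with log2(FPKM + 0.1), against 3893 and 4027. In the order upper-quartile, library totals, log2(FPKM + 1) and log2(FPKM + 0.1), the log2 fold change of Fbn2 was 0.23, 0.022, 0.012 and 0.022, that of Fbln5 0.085, −0.12, −0.11 and −0.12, and that of Efemp2 −0.14, −0.35, −0.34 and −0.34. These 4 settings shifted the median of all tested genes by −0.16, −0.36, −0.26 and −0.35. Efemp2, not called with TMM, ranged from −0.037 to 0.070 when each library was left out, and was below 0 without control library 4. Leaving out each library kept 3 members higher and 1 lower in every case, with Fbn1 at −1.27 to −1.20 and Fbln2 at 0.61 to 0.69. In read counts, not per length, the Fbln5 share of fibulins moved by −1.04 points (−0.43 per length) and that of Efemp1 by −0.0151 points (−0.0374 per length). Mfap5 had too few reads for a value with CPM above 1 in all libraries, and Mfap4, Eln, Fbln1 and Efemp1 had values with no filter alone, none past the threshold (adjusted p of 0.173, 0.759, 0.500 and 0.120, edgeR).

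The labels number libraries 1 to 4 in both groups but do not say that a number marks a shared source. Deviations of same-numbered libraries correlated at −0.0215 to 0.0266, and no library correlated best with its own number. With the replicate block 3 members were higher and 1 lower, with Fbn1 at −1.24 and Fbln2 at 0.64. Depth limits the members with few reads: 3 reads over the 4 control libraries equal 0.0482 CPM.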

Other observations

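Of the listed genes around the fibre with too few reads for the filter, 3 had counting bounds that leave out no difference with TMM scaling, and these were chosen after their values were seen. Adamtsl2, whose product binds fibrillin 1 and the latent TGF-beta binding proteins, had 0, 1, 0 and 0 reads in control libraries 1 to 4 and 8, 6, 10 and 13 in EA. EA stood at 47.0 times control, with exact 95% bounds of 7.94 and 1908 (counting error only, TMM scaling), and with no filter edgeR gave an adjusted p of 7.79e-06. Thsd4, an ADAMTS-like gene also known to promote fibrillin assembly, had 7, 6, 6 and 14 reads in control and 1, 1, 7 and 2 in EA, with overlap. EA stood at 0.424 times control with bounds of 0.193 and 0.860, and it did not pass with no filter (adjusted p = 0.148, edgeR). Ctss, the gene of cathepsin S, a protease that degrades elastin, had 2, 3, 1 and 1 reads in control and 2, 10, 4 and 7 in EA, with overlap. EA stood at 4.18 times control with bounds of 1.74 and 11.5, and an adjusted p of 0.0448 with no filter (edgeR).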
